A study of Mus musculus with 9 samples.

Results

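The 36 genes described here encode proteins that bring fatty acids into the cell, carry them into mitochondria, oxidise them, and use ketone bodies. They were chosen by gene name from these functions, and each was represented by the probe set with the highest mean over the 9 arrays. A probe set with a single gene symbol was found for 34 of the 36, out of 18193 genes with such a probe set. Acsl1 had none, and the Cpt1b probe set is listed for several genes, so neither has a value.

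The study compared 3 kinds of mouse cells, with 3 biological replicates of each. MEF are fibroblasts isolated from C57BL/6 embryos at embryonic day 13.5. CiCM are cardiomyocyte-like cells made from MEF with 6 small molecules: CHIR99021 at 10 µM (an inhibitor of the kinase GSK3), RepSox at 10 µM (an inhibitor of the TGF-beta type I receptor), forskolin at 50 µM (an activator of adenylyl cyclase), VPA at 0.5 mM (valproic acid, a histone deacetylase inhibitor), Parnate at 5 µM (an LSD1 inhibitor, which blocks removal of histone methyl marks) and TTNPB at 1 µM (which activates retinoic acid receptors). CiCM material consisted of beating clusters picked on day 24, and so does not stand for all treated cells. CM are cardiomyocytes taken from mouse heart, for which the labels give neither age nor strain. Total RNA was measured in bulk on Affymetrix arrays, and all levels below are log2 signals. The labels do not say that replicates came from separate cultures or animals, and array batches were not analysed here, so batch and group cannot be told apart.

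Long-chain fatty acids reach heart muscle from albumin or from circulating triglyceride cleaved by lipoprotein lipase, cross the membrane with the help of CD36, and are bound by FABP3 in the cytosol. They are activated to acyl-CoA, passed to carnitine by carnitine palmitoyltransferase 1, carried across the inner mitochondrial membrane and shortened step by step in beta-oxidation. The adult heart draws most of its energy from this pathway and also oxidises ketone bodies, whereas the fetal heart relies more on glucose and lactate. Malonyl-CoA blocks entry by inhibiting carnitine palmitoyltransferase 1.

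Each gene was tested with limma in 1 fit of all 9 arrays, over 12559 genes whose highest group mean reached the table's median of 6.58. A gene was called higher or lower at an adjusted p under 0.05 together with a log2 difference of at least 1. All 34 measured members passed the signal filter. Plin5 did so through CM alone, and it is among the members called in the counts below. Levels below 6.58 varied between arrays, with an SD of 1.87 for Acacb in MEF, so a number of log2 differences from such low levels are also given with 32 added to the linear signals. Centring the arrays on their medians would lower every CiCM minus MEF difference by 0.058 log2 and every CM minus MEF difference by 0.37. Levelling on the 18 hybridisation control probe sets would lower them by 0.23 and 0.80. Over all tested genes 1451 passed the call upward and 1536 downward between MEF and CiCM, which became 1132 and 2068 after levelling on those controls. For CM against MEF 2779 were higher and 2736 lower, and this became 2094 and 3879 with median centring and 1551 and 5483 with the controls. For CiCM against CM 2075 were higher and 2387 lower, and this became 2961 and 1786 with centring and 4023 and 1377 with the controls.

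The labels were set against marker genes of 6 cell types. Of 12 cardiomyocyte markers 12 lay at or above 6.58 in CM and 6 in CiCM, and 8 rose in CiCM against MEF. Among those 8, the sarcomere genes Tnnt2, Actc1 and Myl2 averaged 14.50, 13.66 and 13.35 in CiCM and 15.64, 15.54 and 15.34 in CM. The sarcomere genes Myh6, Tnni3 and Myl3, also among the 8, averaged 7.13, 5.77 and 8.61 in CiCM and 15.72, 15.15 and 15.55 in CM. Tnni3, Pln and Gata4 averaged under 6.58 in both MEF and CiCM and passed the signal filter through CM alone. The cardiac calcium release channel gene Ryr2 averaged 5.06 over the MEF arrays, 5.19 over CiCM and 14.14 over CM, and the cardiac transcription factor gene Nkx2-5 had 6.17, 6.32 and 10.26, so neither was called between CiCM and MEF. All 12 skeletal muscle markers passed the call upward in CiCM against MEF, and their log2 summed signal was 17.36 to 17.51 in CiCM against 14.85 to 15.13 in CM. All 12 lay at or above 6.58 in CiCM and 4 in CM. The CM sum is mostly Ckm, at 13.93, 14.97 and 14.99, and Myl1, at 13.71, 10.92 and 11.37. For CiCM minus CM the median marker was at 8.86 log2, and Ckm was at -1.40. The 10 fibroblast markers were all at or above 6.58 in every group, with log2 sums of 16.93 to 16.94 in MEF, 16.75 to 16.81 in CiCM and 15.47 to 15.90 in CM. Many fatty acid oxidation genes are active in skeletal as well as heart muscle, and the part of skeletal muscle and fibroblast transcripts in the results below was not tested. In bulk RNA, fewer cells of a type and less RNA per cell cannot be told apart.

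CM replicate 1 stood apart before any of the results. It correlated with the other CM arrays at r = 0.936 and 0.930 across tested genes, against 0.953 between those 2 (correlations across genes, which are not independent replicates). It carried Sln, an atrial regulator of the calcium pump, at 14.95 against 8.14 and 2.97, and the atrial light chain gene Myl7 at 15.05 against 9.25 and 5.98. It also carried Adipoq, which encodes the fat cell hormone adiponectin, at 13.50 against 6.21 and 5.09. Results that rest on CM are therefore also given without it where it matters.

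Every upstream window printed here belongs to members that were called higher in CiCM: Fabp3, the member with the largest difference from MEF, Acadm and Hadhb of the oxidation cycle, and Ucp3. The sequences are the 250 bases before the annotated start, from RefSeq on build GRCm38.p6, read 5′ to 3′ on the gene's strand. Capitals mark a motif match. Fabp3 lies at chr4:130308488-130308737 on the plus strand, Acadm at chr3:153944644-153944893 on the minus strand, Hadhb at chr5:30155003-30155252 on the plus strand and Ucp3 at chr7:100472741-100472990 on the plus strand.
Fabp3: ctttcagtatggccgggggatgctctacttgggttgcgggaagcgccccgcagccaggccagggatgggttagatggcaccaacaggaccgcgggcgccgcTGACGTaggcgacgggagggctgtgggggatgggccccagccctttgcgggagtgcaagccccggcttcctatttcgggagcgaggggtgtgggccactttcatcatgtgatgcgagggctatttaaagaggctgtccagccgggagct
Acadm: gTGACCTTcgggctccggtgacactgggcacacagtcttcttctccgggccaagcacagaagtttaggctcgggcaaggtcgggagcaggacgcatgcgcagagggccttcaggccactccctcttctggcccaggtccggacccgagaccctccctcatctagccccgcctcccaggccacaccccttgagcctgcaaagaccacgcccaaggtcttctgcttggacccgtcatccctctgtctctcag
Hadhb: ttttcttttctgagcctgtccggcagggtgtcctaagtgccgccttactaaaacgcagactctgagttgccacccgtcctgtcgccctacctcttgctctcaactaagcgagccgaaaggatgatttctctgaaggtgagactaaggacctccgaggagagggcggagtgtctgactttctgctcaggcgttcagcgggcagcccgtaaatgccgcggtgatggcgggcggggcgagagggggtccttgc
Ucp3: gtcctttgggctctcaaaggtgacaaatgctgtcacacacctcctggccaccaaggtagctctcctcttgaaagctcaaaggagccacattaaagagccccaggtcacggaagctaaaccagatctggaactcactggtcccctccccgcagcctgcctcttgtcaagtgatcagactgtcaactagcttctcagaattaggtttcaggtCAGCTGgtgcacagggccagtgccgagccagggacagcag
Capitals mark TGACGT, the core of a cAMP response element, in Fabp3 (149 bases before the start). In Acadm they mark TGACCTT, the reverse of the nuclear receptor core AAGGTCA (249 bases before). In Ucp3 they mark CANCTG, a form of the E-box (40 bases before). Other forms of the E-box were not searched and are not marked. Hadhb held none of the motifs searched. Hadha and Hadhb, which encode the subunits of the mitochondrial trifunctional protein, are transcribed away from each other with 272 bases between their starts (30154980 and 30155253 on chromosome 5), and their upstream windows share 228 bases.

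Windows were found for 31 of the 36 members, and 6 motifs were searched on both strands, of which TCAAGGTCA contains AAGGTCA. DR1, the element bound by PPAR and RXR (AGGNCA repeated after 1 base of any kind), was in 0 of 31 windows and in 0.4% of those of 27025 genes. The estrogen-related receptor site TCAAGGTCA was in 0 and 0.422%, and the MEF2 site in 0 and 0.115%. AAGGTCA was in 1 window (4.7% of all genes), TGACGT in 1 (7.29%) and CANCTG in 14 (48.2%), 4 of them among the 9 members called higher in CiCM: Acadl, Mlycd, Plin5 and Ucp3. These are descriptions of letters in a short window and say nothing of binding.

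A minority of the members were called higher in CiCM. Of these, 5 rose by 1.04 to 1.45 log2, Plin5, Ucp3 and Acacb by 2.68, 2.80 and 3.89, and Fabp3 by 5.27. In CiCM against MEF, 9 of the 34 members were called higher (26.5%, against 11.6% of all tested genes) and 0 were called lower (12.2% of all genes); limma at an unadjusted p under 0.05 counted 20 higher and 7 lower. After levelling on the hybridisation controls the members were 6 higher and 3 lower (Acot1, Acot2 and Cd36). The 9 were Fabp3, Acadl, Acadm, Hadha, Hadhb, Ucp3, Plin5, Mlycd and Acacb. Among them, Plin5 passed the signal filter through CM alone. The median member differed by 0.59 log2, against -0.033 for all tested genes. By adjusted p alone, with no minimum difference, 20 were higher and 7 lower, against 24.2% and 27.8% of all genes. All 3 CiCM arrays lay above all 3 MEF arrays for 20 members (32.1% of all genes) and below them for 10 (36.4%).

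**Figure D1:**
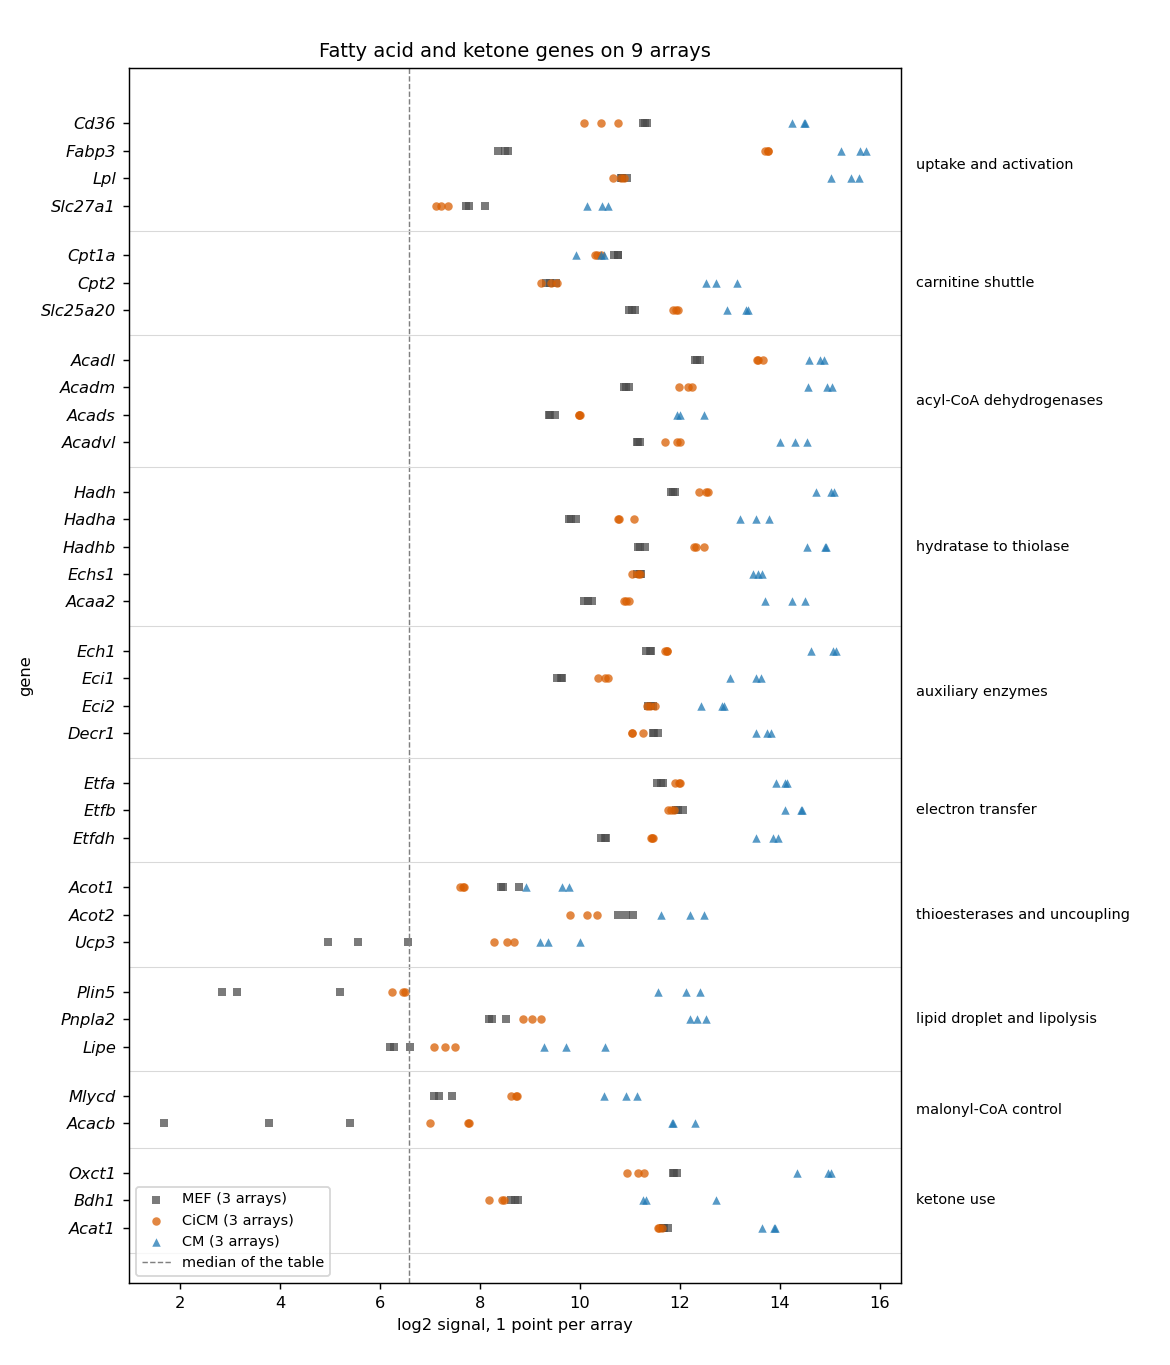
Log2 signal of the 34 measured members on each of 9 arrays, grouped by role. Squares are MEF, circles CiCM and triangles CM, 3 arrays each; the dashed line is the table's median of 6.58. CM points lie to the right of both other groups for nearly all genes, and CiCM points lie nearer to CM than to MEF for Fabp3, Ucp3 and Acadl.

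The heart cells carried nearly the whole pathway at a higher level. In CM against MEF, 32 of 34 were called higher (94.1%, against 22.1% of all genes) and 0 lower (21.8% of all genes); at an unadjusted p under 0.05 limma counted 33 higher and 1 lower, which is Cpt1a. The exceptions were Cpt1a and Acot1. The median difference was 3.11 log2, against -0.031 for all genes. CiCM lay under CM for 33 of 34 (97.1%, against 19.0% of all genes), with 0 higher by the limma call (16.5% of all genes) and 0 higher at an unadjusted p under 0.05, and a median of -2.48 against -0.027. CiCM minus MEF and CM minus MEF share the MEF arrays, so their values are set side by side without a test of their likeness. Without CM replicate 1, 33 members were called higher in CM than in MEF, Acot1 being the added one at 1.16, and 33 were lower in CiCM than in CM.

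**Figure D2:**
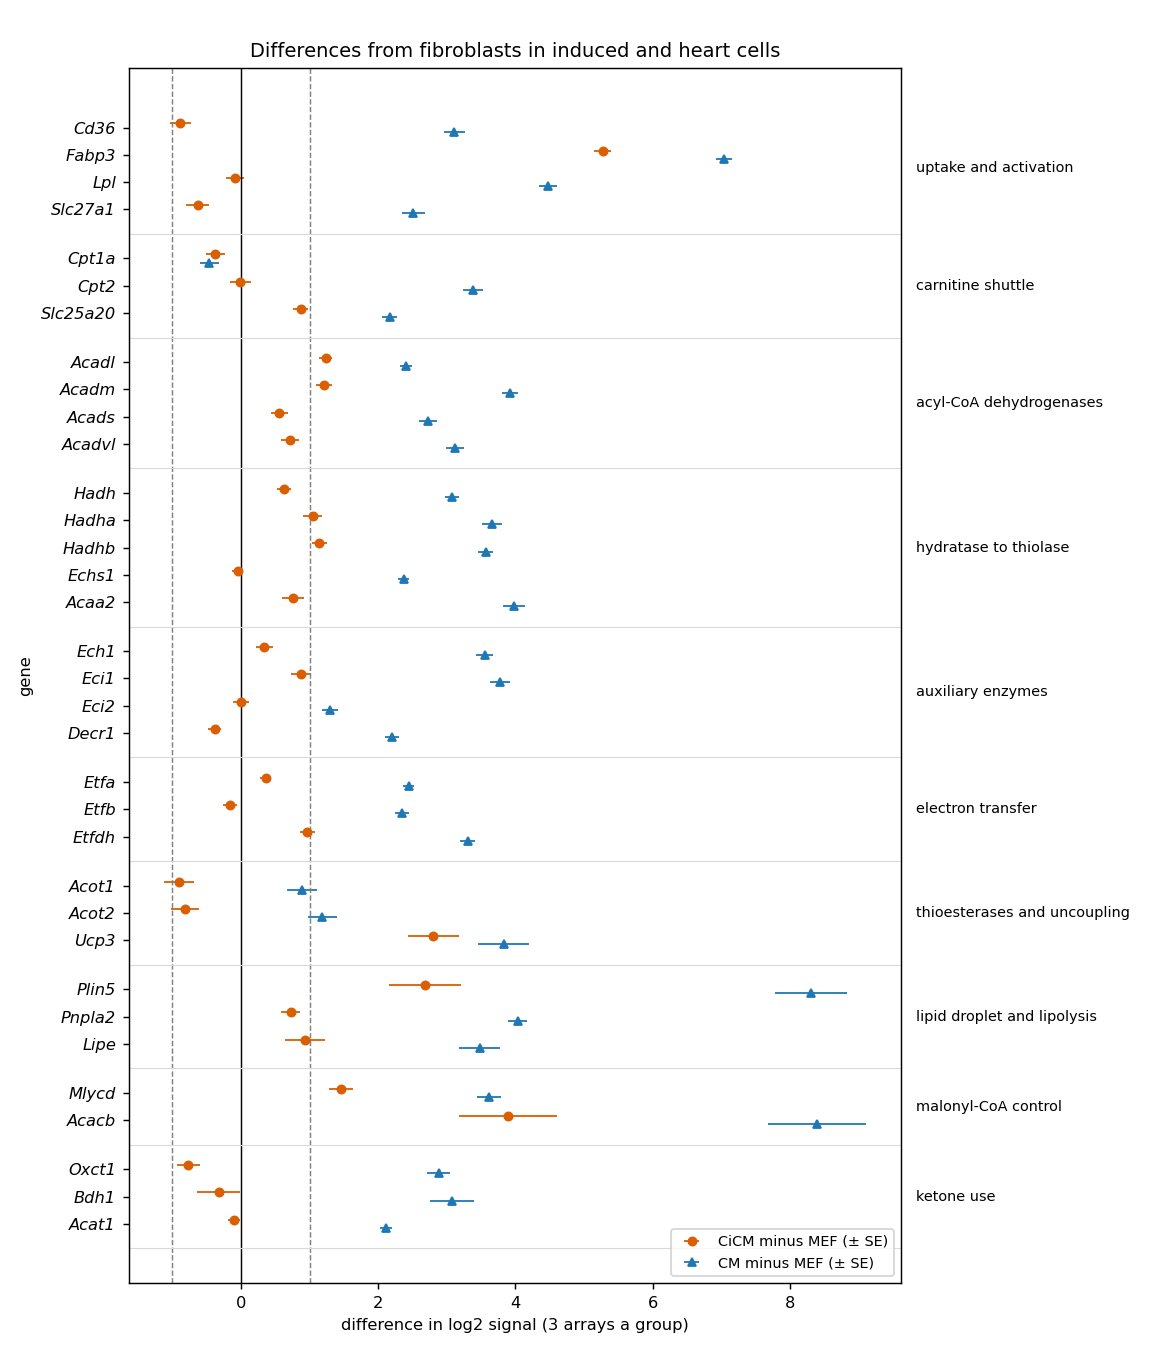
Difference in log2 signal from MEF for the 34 members, CiCM minus MEF as circles and CM minus MEF as triangles, with bars of 1 standard error from the fit over 3 arrays a group. Dashed lines mark the log2 difference of 1; triangles lie beyond it for all but Cpt1a and Acot1, and circles for 9 genes.

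Uptake was split in CiCM. Fabp3, the cytosolic fatty acid carrier of heart and skeletal muscle, read 8.49, 8.37 and 8.56 in MEF, 13.70, 13.77 and 13.76 in CiCM, and 15.22, 15.72 and 15.60 in CM. The groups did not overlap, and by this probe set CiCM lay much nearer CM than MEF. The CiCM difference from MEF was 5.27 ± 0.12 log2 (SE, n = 3 a group; 38.6-fold; limma adjusted p = 5.58e-10), and CiCM remained 1.77 log2 below CM. The other Fabp3 probe set averaged 5.92 in MEF, 6.60 in CiCM and 7.94 in CM. It put CiCM nearer MEF, at 0.68 for CiCM minus MEF and -1.35 for CiCM minus CM. Cd36, the membrane fatty acid translocase, read 11.27, 11.35 and 11.29 in MEF, 10.76, 10.42 and 10.07 in CiCM, and 14.25, 14.50 and 14.49 in CM. CiCM arrays were all below MEF arrays, with a difference of -0.89 ± 0.15 log2 (adjusted p = 0.000623) that misses the size for a call, and the other 2 Cd36 probe sets had differences of -0.60 and 0.48. Without CiCM replicate 1 the difference was -1.06 and was called.

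Lpl, the secreted lipase that frees fatty acids from circulating triglyceride, overlapped between MEF (10.84, 10.83, 10.94) and CiCM (10.66, 10.88, 10.82), at a difference of -0.083 ± 0.13 log2 (adjusted p = 0.625). CM read 15.03, 15.59 and 15.42, which is 4.48 log2 above MEF. Slc27a1, a fatty acid transport protein, read 7.71, 7.78 and 8.10 in MEF, 7.36, 7.22 and 7.12 in CiCM, and 10.43, 10.14 and 10.57 in CM. Its CiCM arrays all lay under those of MEF, at -0.63 log2 (adjusted p = 0.00987), under the size for a call. CM was higher than CiCM by 3.14 log2.

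**Figure D3:**
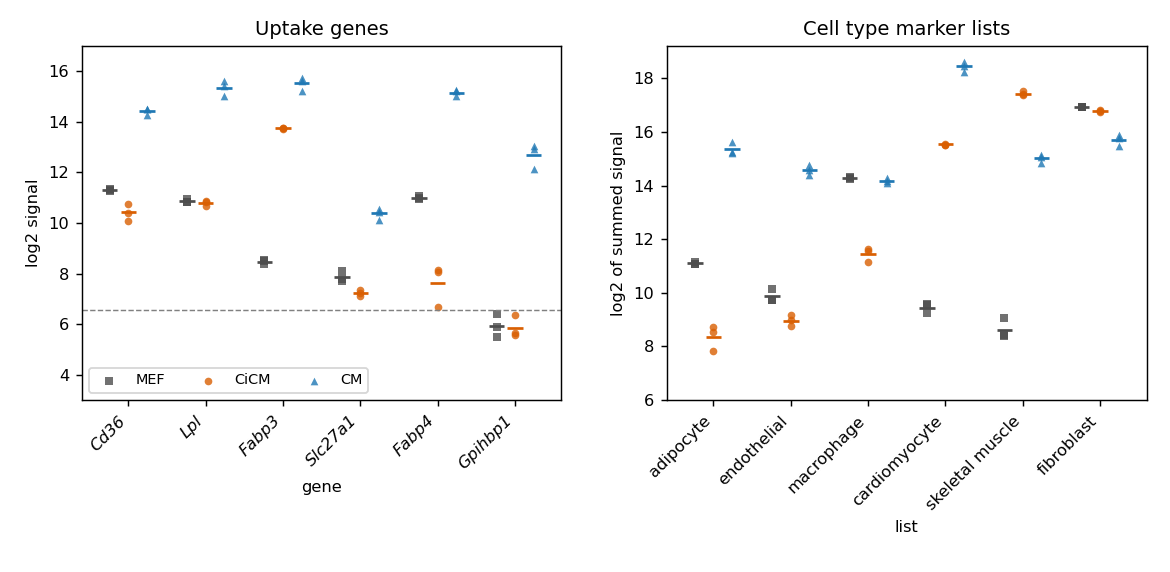
Left, log2 signal per array of 6 fatty acid uptake genes in MEF (squares), CiCM (circles) and CM (triangles), with bars at the group means and a dashed line at 6.58. Right, log2 of the summed signal per array of the marker lists of 6 cell types. Adipocyte and endothelial lists are highest in CM and lowest in CiCM.

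Cd36, Lpl and the other uptake genes are also active in fat, endothelial cells and macrophages. The adipocyte list (6 of 9 markers measured, 4 at or above 6.58 in CM and 1 in MEF and in CiCM) had log2 summed signals of 11.06 to 11.16 in MEF, 7.84 to 8.72 in CiCM and 15.22 to 15.62 in CM. The endothelial list (10 of 10 at or above the line in CM, 3 in MEF and 1 in CiCM) had 9.71 to 10.12, 8.75 to 9.16 and 14.40 to 14.75, and all 10 genes were called higher in CM than in MEF. The macrophage list had 14.25 to 14.30 in MEF, 11.16 to 11.65 in CiCM and 14.09 to 14.28 in CM, and 11 of 11 genes were called lower in CiCM than in MEF. Fabp4, a lipid carrier of fat, endothelial cells and macrophages, fell by 3.37 in CiCM and rose by 4.15 in CM against MEF, and Gpihbp1, the endothelial anchor of lipoprotein lipase, differed by -0.077 in CiCM and rose by 6.75 in CM (6.15 with 32 added). Gpihbp1 averaged under 6.58 in both MEF and CiCM and passed the signal filter through CM alone. In CM the adipocyte and endothelial sums were higher together with Cd36 and Lpl, while the macrophage list was near its MEF level. The CM adipocyte sum was mostly Fabp4, which averaged 15.15 over the CM arrays. The adipocyte markers Adipoq and Retn were highest in CM replicate 1, at 13.50 and 11.89. They read 6.21 and 5.10 in CM replicate 2, and 5.09 and 6.83 in replicate 3. Pparg, also on that list, read 8.81, 8.37 and 7.89 in CM, above all MEF arrays. In CiCM the summed signals of all 3 lists were lower than in MEF. The MEF adipocyte sum was also mostly Fabp4, which averaged 11.00 there. Of 4 tested adipocyte markers 1, Fabp4, was called lower in CiCM than in MEF, and of 10 endothelial markers 2 were. Retn also averaged lower in CiCM, while Adipoq, Pparg, Cidec and Lep averaged slightly higher, all under 6.58 in both groups. By the chosen probe sets Cd36 read lower in CiCM, without a call, while Lpl overlapped with MEF. The other Lpl probe set differed by -0.57 log2, and the other Cd36 probe sets by -0.60 and 0.48. The part of these cell types in the Cd36 and Lpl values was not tested.

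The carnitine shuttle was raised in CM except for Cpt1a. Cpt1a, the liver-type enzyme that attaches fatty acids to carnitine, read 10.77, 10.76 and 10.68 in MEF, 10.31, 10.43 and 10.34 in CiCM, and 10.43, 9.92 and 10.48 in CM. MEF arrays were highest and CiCM and CM overlapped. The differences from MEF were -0.38 ± 0.14 log2 for CiCM (adjusted p = 0.0412) and -0.46 ± 0.14 for CM (adjusted p = 0.0120), neither large enough for a call, and the other 2 probe sets gave -1.64 and -0.59 for CM. The same 2 probe sets read 1.18 and 0.53 log2 higher in CiCM than in CM, where the chosen one gave 0.084. Cpt1b, the muscle-type enzyme, has no value here. Cpt2, which passes the acyl group back to CoA inside the mitochondrion, overlapped between MEF and CiCM at -0.012 log2, and rose by 3.38 in CM. The other Cpt2 probe set gave -1.22 for CiCM and 0.83 for CM. Slc25a20, the carnitine-acylcarnitine translocase, read 0.87 log2 higher in CiCM (adjusted p = 8.64e-05), under the size for a call, and rose by 2.16 in CM.

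The acyl-CoA dehydrogenases, which take the first electrons from fatty acids of decreasing chain length, all read higher in CiCM than in MEF. Acadl, for long chains, rose by 1.23 ± 0.09 log2 in CiCM (2.35-fold, adjusted p = 1.55e-06) and by 2.40 in CM. Acadm, for medium chains, read 10.88, 10.92 and 10.98 in MEF, 12.25, 11.98 and 12.17 in CiCM, and 14.57, 15.04 and 14.93 in CM. The 3 groups were separate, and the CiCM rise of 1.21 ± 0.12 log2 (adjusted p = 1.62e-05) was small beside the 3.92 in CM. Acads, for short chains, and Acadvl, for very long chains, read 0.56 and 0.72 log2 higher in CiCM, under the size for a call, and rose by 2.72 and 3.12 in CM. With levelling on the controls Acadm was at 0.98 and lost its call.

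Of the 5 enzymes from hydratase to thiolase, the trifunctional protein genes were called in CiCM. Hadha, its alpha subunit, read 9.78, 9.82 and 9.92 in MEF, 10.77, 10.79 and 11.09 in CiCM, and 13.20, 13.52 and 13.78 in CM. Hadhb, its beta subunit, read 11.30, 11.20 and 11.17 in MEF, 12.33, 12.28 and 12.47 in CiCM, and 14.54, 14.93 and 14.89 in CM. Both showed separate groups, with CiCM 1.04 ± 0.14 log2 (adjusted p = 0.000152) and 1.14 ± 0.11 log2 (adjusted p = 1.25e-05) above MEF and CM 3.66 and 3.56 above. These are the genes with 272 bases between their starts. Hadha sat at the size limit: it was at 0.99 with median centring, 0.81 with the controls and 0.94 without CiCM replicate 3, and Hadhb was at 0.91 with the controls and 0.81 as the mean of its probe sets.

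Hadh, which oxidises short- and medium-chain hydroxyacyl-CoA, read 0.62 log2 higher in CiCM, and Acaa2, the mitochondrial thiolase, 0.76 higher, neither called. In CM they rose by 3.08 and 3.98. Echs1, the short-chain enoyl-CoA hydratase, overlapped between MEF and CiCM at -0.051 log2 and rose by 2.37 in CM.

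The auxiliary enzymes rearrange the double bonds of unsaturated fatty acids, and none of the 4 was called between CiCM and MEF. Eci1, an enoyl-CoA isomerase, read 0.87 log2 higher in CiCM (adjusted p = 0.000556), Ech1, a dienoyl-CoA isomerase, 0.34 higher (adjusted p = 0.0357), and Eci2, a second enoyl-CoA isomerase, 0.0013 higher. Decr1, the dienoyl-CoA reductase, read -0.39 log2 (adjusted p = 0.00739), but its other probe set read 0.94 higher in CiCM. All 4 rose in CM, by 3.78, 3.55, 1.30 and 2.20 in that order, and the call on Eci2 was lost at 0.93 with median centring and 0.50 with the controls.

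The electron transfer flavoprotein passes electrons from the dehydrogenases to ubiquinone. Etfdh, the oxidoreductase at the end of that chain, read 0.97 ± 0.11 log2 higher in CiCM (adjusted p = 3.37e-05), just under the size for a call, and rose by 3.31 in CM. Etfa, the alpha subunit, read 0.36 higher (adjusted p = 0.00411) and Etfb, the beta subunit, -0.16 (adjusted p = 0.213). Both rose in CM, by 2.44 and 2.34.

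The thioesterases and the uncoupling protein went apart. Acot1, a cytosolic acyl-CoA thioesterase, read 8.41, 8.47 and 8.78 in MEF, 7.66, 7.67 and 7.59 in CiCM, and 8.92, 9.65 and 9.77 in CM. Acot2, its mitochondrial neighbour, read 10.77, 11.06 and 10.92 in MEF, 9.80, 10.15 and 10.35 in CiCM, and 11.63, 12.20 and 12.48 in CM. CiCM lay under MEF without overlap for both, at -0.91 (adjusted p = 0.00524) and -0.82 log2 (adjusted p = 0.00689), short of the size for a call. The sequences of this pair are near-identical, so their probe sets may not separate them. In CM, Acot2 rose by 1.19, and its call was lost at 0.82 with median centring, 0.38 with the controls, 0.93 as the mean of its probe sets and 1.00 without CM replicate 3.

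Ucp3, a mitochondrial carrier of muscle that responds to fatty acid load, read 5.57, 4.95 and 6.57 in MEF, 8.54, 8.28 and 8.67 in CiCM, and 9.20, 9.37 and 10.01 in CM. The groups were separate, with MEF around or under the signal line. CiCM rose by 2.80 ± 0.37 log2 over MEF (adjusted p = 0.000118) and by 2.20 with 32 added, and CM rose by 3.83, or 3.16 with 32 added. CiCM stood 1.03 log2 under CM (adjusted p = 0.0318), a call that several alternatives lost, among them 32 added at -0.97.

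By the chosen probe sets, the genes of the lipid droplet and of lipolysis read higher in CiCM and far higher in CM. Plin5, a droplet protein that ties droplets to mitochondria in oxidative tissue, read 5.20, 2.84 and 3.14 in MEF, 6.25, 6.50 and 6.47 in CiCM, and 11.57, 12.12 and 12.40 in CM. MEF and CiCM both lie under 6.58, and Plin5 passed the signal filter through CM alone. The CiCM rise of 2.68 ± 0.52 log2 (adjusted p = 0.00156) is therefore between low readings, and it was 1.29 with 32 added, against 6.46 for CM. Pnpla2, which cuts the first fatty acid from triglyceride, read 0.72 log2 higher in CiCM (adjusted p = 0.00133), not called, and rose by 4.03 in CM. The other Pnpla2 probe set, under the signal line in every group, gave -0.78 for CiCM, and the mean of its probe sets gave -0.027. Lipe, hormone-sensitive lipase, read 6.60, 6.20 and 6.28 in MEF, 7.08, 7.30 and 7.50 in CiCM, and 10.51, 9.28 and 9.72 in CM. Its CiCM arrays lay above those of MEF, at 0.93 log2 (adjusted p = 0.0212), which became a call at 1.05 without MEF replicate 1 and 1.04 without CiCM replicate 1. In CM, where replicate 1 was highest, Lipe rose by 3.48, or 3.14 without that array.

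Both genes of malonyl-CoA control rose in CiCM, although their products work in opposite directions. Mlycd, the decarboxylase that removes malonyl-CoA, read 7.08, 7.45 and 7.19 in MEF, 8.61, 8.72 and 8.74 in CiCM, and 10.49, 10.93 and 11.14 in CM. Acacb, the acetyl-CoA carboxylase at the mitochondrial surface that makes malonyl-CoA, read 1.67, 5.40 and 3.77 in MEF, 6.99, 7.78 and 7.76 in CiCM, and 11.85, 11.86 and 12.31 in CM. Groups were separate for both. Mlycd rose in CiCM by 1.45 ± 0.18 log2 (adjusted p = 6.10e-05) and in CM by 3.61. Acacb rose by 3.89 ± 0.72 log2 (adjusted p = 0.00107) and 8.39, or by 2.13 and 6.40 with 32 added, since MEF were under the signal line.

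None of the 3 ketone genes was called in CiCM against MEF. Oxct1, the transferase that starts ketone use in muscle, read 11.94, 11.87 and 11.89 in MEF, 11.28, 10.95 and 11.16 in CiCM, and 14.34, 15.03 and 14.97 in CM. CiCM lay under MEF without overlap, at -0.77 ± 0.16 log2 (adjusted p = 0.00269), not called, and CM rose by 2.88. Bdh1, the hydroxybutyrate dehydrogenase, read 8.70, 8.75 and 8.63 in MEF, 8.17, 8.44 and 8.49 in CiCM, and 12.72, 11.27 and 11.31 in CM, and its other probe set read 1.06 log2 higher in CiCM. The CiCM difference was -0.33 (adjusted p = 0.412, or 0.0369 without CM replicate 1), and CM rose by 3.07, or 2.60 without CM replicate 1. Acat1, the thiolase that ends ketone breakdown, differed by -0.10 log2 in CiCM (adjusted p = 0.338) and rose by 2.11 in CM. For 18 members several probe sets had a group mean of at least 6.58. In 6 of the 18 these did not share a sign for CiCM against MEF (Acat1, Bdh1, Cd36, Decr1, Hadh and Oxct1). All 18 of 18 shared it in each comparison with CM. Probe sets that never reached the line were not counted. Those of Pnpla2 and Lipe read -0.78 and -0.52 for CiCM minus MEF, against the sign of the chosen ones. That of Lipe also differed in sign for CM minus MEF (-0.73) and CiCM minus CM (0.21). Those of Etfdh and Acacb kept the sign of the chosen ones.

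Some transcriptional regulators of the pathway, activators and a corepressor among them, rose in CiCM. Of 18 tested, 9 were called higher and 0 lower than in MEF (50%, against 11.6% of all genes higher and 12.2% lower; limma at an unadjusted p under 0.05 counted 10 and 0), with a median difference of 0.89, and 11 were called higher in CM (61.1%, against 22.1% of all genes), with a median of 3.11. Ppargc1b and Ppargc1a, coactivators of mitochondrial genes, rose by 3.46 and 1.99 log2 in CiCM and by 5.03 and 5.52 in CM. Perm1, a muscle coregulator, rose by 4.06 and 9.65, Rxrg, a retinoid X receptor, by 3.04 and 5.37, and Lpin1, a phosphatase and coactivator, by 2.52 and 3.51. With 32 added the CiCM differences of Perm1, Rxrg and Ppargc1a were 1.42, 1.94 and 1.45, and that of Perm1 in CM was 6.49. Nrip1, a corepressor of oxidative genes, is also among the 9, at 1.07, and was picked out after its values were seen. The estrogen-related receptors Esrra and Esrrg rose by 1.26 and 1.68 in CiCM, although the call on Esrrg was lost at 0.96 with 32 added. Perm1 and Esrrg averaged under 6.58 in both MEF (2.13 and 4.62) and CiCM (6.19 and 6.31) and passed the signal filter through CM alone.

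Ppara, the fatty acid receptor that governs the pathway in heart, read 5.68, 5.35 and 6.25 in MEF, 6.11, 6.57 and 6.70 in CiCM, and 10.12, 10.59 and 10.52 in CM. MEF and CiCM overlapped, at 0.70 ± 0.28 log2 (adjusted p = 0.0558), and CM rose by 4.65. Ppard, the more widely active receptor, overlapped between all groups, at 0.032 in CiCM and 0.098 in CM, and its sign turned with the scaling. Klf15, a circadian regulator of lipid use in muscle, differed by -0.79 in CiCM (adjusted p = 0.480) and rose by 6.58 in CM, or 4.77 with 32 added. Ppara, Pparg and Klf15 averaged under the signal line in both MEF and CiCM and passed the filter through CM alone.

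**Figure D4:**
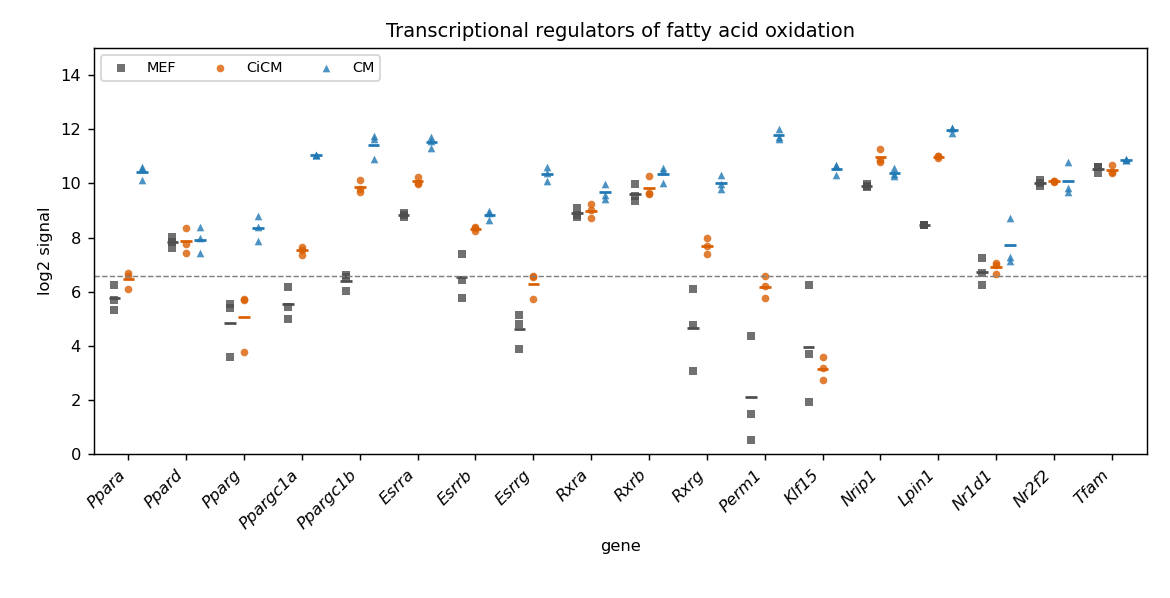
Log2 signal per array of 18 transcriptional regulators in MEF (squares), CiCM (circles) and CM (triangles), with bars at the means of 3 arrays and a dashed line at 6.58. Ppargc1b, Lpin1 and Rxrg sit between MEF and CM in CiCM, whereas Ppara and Klf15 in CiCM stay with MEF under the line or close to it.

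Other fatty acid and ketone genes gave 8 called higher and 3 called lower of 36 tested in CiCM against MEF (22.2% and 8.33%, against 11.6% and 12.2% of all genes), and 22 and 6 in CM against MEF (61.1% and 16.7%, against 22.1% and 21.8%). Pdk4, the kinase that shuts off pyruvate oxidation, rose by 4.15 log2 in CiCM and 5.07 in CM, and Crat, carnitine acetyltransferase, by 2.60 and 4.30. Acsl6, an acyl-CoA synthetase, rose by 4.39 in CiCM and by 1.59 in CM, and was 2.80 higher in CiCM than in CM. Slc16a1, a carrier of lactate and ketone bodies, rose by 1.12 and 2.33. Acsl3, a synthetase of lipid droplet growth, rose by 1.45 in CiCM and fell by 1.47 in CM.

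Droplet and carrier genes included those that fell. Plin2, the general droplet coat protein, fell by 1.61 log2 in both CiCM and CM, and Fabp5, a widely expressed carrier, fell by 1.38 in CiCM. Plin4, another droplet coat protein, averaged 4.76 in MEF and 6.53 in CiCM, both under 6.58, and passed the signal filter through CM alone. Its CiCM difference was 1.77 with overlapping arrays (adjusted p = 0.0427), 1.04 with 32 added and 1.03 to 2.43 when 1 array was left out, and the call was lost in several of those fits, at an adjusted p of 0.146 without MEF replicate 3. In CM it rose by 7.08, or 5.87 with 32 added. Angptl4, an inhibitor of lipoprotein lipase, differed by -0.12 in CiCM and fell by 3.05 in CM, and as the mean of its probe sets read 1.47 higher in CiCM. Acss1, mitochondrial acetyl-CoA synthetase, differed by 0.12 in CiCM and rose by 6.82 in CM, or 6.32 with 32 added. It averaged 6.25 in MEF and 6.37 in CiCM and passed the signal filter through CM alone. Slc27a3, of the fatty acid transport protein family, fell by 2.56 in CM (-1.47 with 32 added). Its CM arrays read 5.85, 6.21 and 2.32, all under 6.58, and the difference was -3.27 to -1.32 when 1 array was left out. The CiCM arrays also lay under those of MEF, at -1.67, not called. Acot9, a mitochondrial thioesterase, fell by 1.48 in CM.

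In peroxisomal oxidation, which shortens very long and branched chains, 1 of 12 tested genes was called higher in CiCM and 0 lower (8.33%, against 11.6% of all genes higher and 12.2% lower; limma at an unadjusted p under 0.05 counted 4 and 1), namely Amacr, a racemase of branched chains, at 1.00 log2, on the size limit, which lost its call at 0.96 with 32 added. In CM 7 were higher (58.3%, against 22.1% of all genes), among them Phyh, a hydroxylase of phytanic acid, by 3.98, Ehhadh, the bifunctional enzyme, by 2.72 and Scp2, a thiolase and sterol carrier, by 1.86. Ehhadh and Abcd2 averaged under 6.58 in both MEF and CiCM and passed the signal filter through CM alone. Abcd2, a peroxisomal fatty acid transporter, was 1.52 log2 lower in CiCM than in CM. Only CM replicate 1 lay above 6.58 for it, at 7.80 against 6.08 and 6.50 in the other CM arrays. Its difference was -1.88 to -1.02 when 1 array was left out.

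Spread among the CM arrays was wider for the members than among the others. The median SD of a member over 3 arrays was 0.059 log2 in MEF, 0.101 in CiCM and 0.265 in CM, against 0.108, 0.164 and 0.239 for all tested genes. CM replicate 1 was the lowest CM array in 28 of 34 members, against 33.9% of all tested genes, and its median member lay 0.40 log2 under the mean of the other CM arrays, against 0.024 above for all genes. Bdh1 and Lipe went the other way, 1.42 and 1.01 log2 higher in that array. Adipoq, Sln and Myl7 were also high in that array, and their part in this was not tested.

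**Figure D5:**
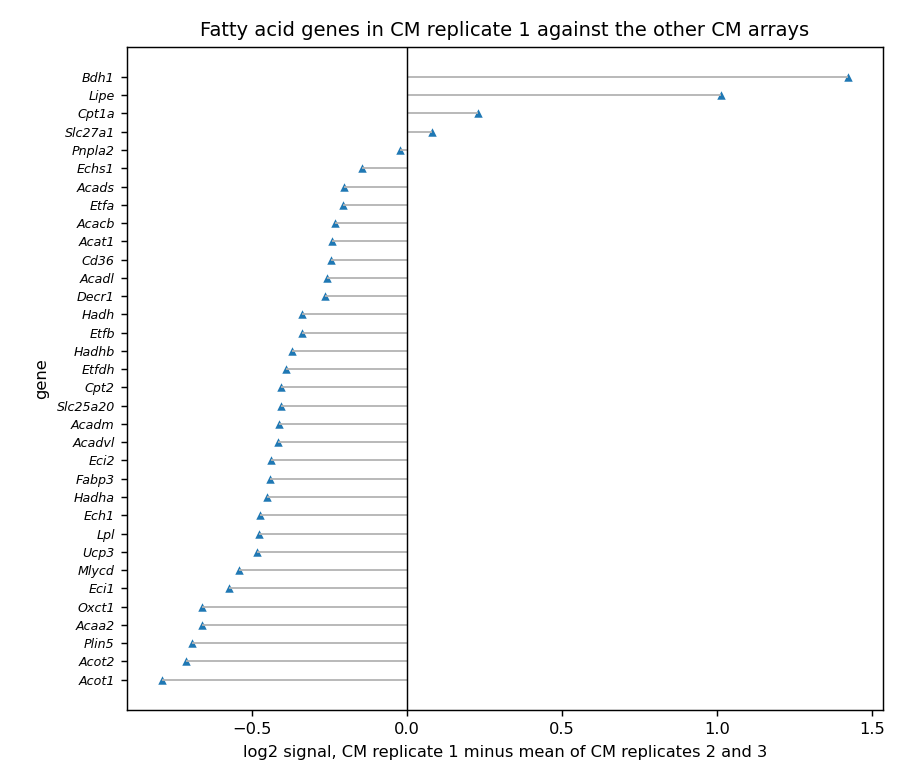
Log2 signal of each of the 34 members in CM replicate 1 minus the mean of CM replicates 2 and 3, ordered by size. Points left of 0 are lower in replicate 1; Bdh1 at 1.42 and Lipe at 1.01 lie farthest to the right, and Acot1 at -0.79 farthest to the left.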

How the data were processed

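RNA of 9 samples (3 MEF, 3 CiCM and 3 CM) was labelled with a 3' amplification kit and put on 1-colour Affymetrix arrays, 1 per sample, per the labels' protocols. The values are the authors' deposited log2 signals for 45101 probe sets, made with MAS5 per the submitters' processing notes. The base of the logarithm was read from the values: on the linear scale the trimmed mean is 500.003 on every array, so global scaling had been applied.

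Probe sets took their gene names from an annotation of the array that GEO holds and that may be outdated: 34945 carried a single symbol, 932 several and 9160 none, and 64 controls were left out. For each of 18193 genes the probe set with the greatest average signal stood for the gene. The 12559 genes with a group mean of at least 6.58, the table's median, entered limma 3.58.1 in R 4.3.3, with lmFit and a trended eBayes over the 9 arrays together, 2-sided tests and Benjamini-Hochberg adjustment over all of them. Calls needed both a size of 1 log2 unit or more and significance at an adjusted p of 0.05. The planned exact permutation comparison of Cpt1b with Cpt1a was not run, since Cpt1b has no probe set of its own. The fit was tested on simulated data. P-values measure the spread between these samples, which may be technical, and precision is limited by how few arrays there are.

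The members and lists were chosen with earlier results of these data known. Every member was named. Of the other lists, up to 4 called genes a comparison and direction by size were named, with Ppara, Ppard, Ppargc1a, Ppargc1b, Esrra, Esrrg, Pdk4, Slc16a1 and Angptl4 whatever their call; 1 further gene to be named whatever its call is not reported here. Genes used to describe CM replicate 1, and the motifs searched in the RefSeq windows (GRCm38.p6), were chosen after values were seen. Alternatives were a constant of 32 added to linear signals, filters at no minimum and at the 75th percentile, quantile, median and control-based scaling, the mean over probe sets, no trend, a replicate block, each array left out in turn and, added after seeing the data, adjusted p alone. Plots used matplotlib 3.10.9 (Python 3.11.15).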

Additional observations from a re-analysis of the deposited data

How the results depend on the processing

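Detection calls were not used here, and precision is limited by 3 arrays a group and by low signals. Leaving out each array in turn, 8 to 10 members were above MEF in CiCM by the call and 0 to 1 lower (Cd36 at -1.06 without CiCM replicate 1), 31 to 33 higher in CM than in MEF, and 32 to 33 lower in CiCM than in CM. With the hybridisation controls these counts were 6, 30 and 29, with 3 members lower in CiCM than in MEF (Acot1 at -1.14, Acot2 at -1.05, Cd36 at -1.11) and 1 lower in CM (Cpt1a at -1.26); with median centring they were 8, 30 and 29. Over all genes the controls gave 1551 higher and 5483 lower in CM than in MEF, and 4023 higher and 1377 lower in CiCM than in CM; these follow from a shift of every gene. With the filter at the 75th percentile, 8579 genes were tested and 1001 were lower in CiCM than in MEF. By adjusted p alone, chosen after seeing the data, CiCM against MEF had 3043 higher and 3486 lower genes (20 and 7 members), CM against MEF 4218 and 4572 (1 member lower), and CiCM against CM 4077 and 4012.

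Same-numbered arrays did not deviate together (correlations of -0.016 to 0.067 over 9 pairs), so the numbers do not pair them. With the replicate number as a block the member counts were 9, 32 and 33, as without it, and all genes gave 1444 higher and 1534 lower for CiCM against MEF, 2774 and 2734 for CM against MEF, and 2063 and 2371 for CiCM against CM.

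Some differences changed sign, not all of them small, and the cause was not tested. For CiCM minus MEF, leaving out 1 array gave -0.086 to 0.075 for Cpt2, -0.084 to 0.00031 for Echs1, -0.043 to 0.038 for Eci2 and -0.22 to 0.25 for Ppard. Cpt2 was 0.020 with quantile normalization, Eci2 -0.057 with centring and -0.23 with the controls, and Ppard -0.025 and -0.20 with those scalings. As the mean of probe sets, Decr1 was 0.28, Pnpla2 -0.027 (0.72 by the chosen probe set), Bdh1 0.37, Acat1 0.061 and Angptl4 1.47. For CM minus MEF, Ppard was -0.074 with quantile normalization, -0.27 with centring, -0.71 with the controls and -0.13 to 0.35 without 1 array. For CiCM minus CM, Ppard was 0.13, 0.24 and 0.51 with those scalings and -0.32 to 0.16 without 1 array, and Cpt1a was -0.095 to 0.19 without 1 array.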
